A study of Mus musculus with 9 samples.

Results

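The 39 mouse Hox cluster genes were described in skin from 9 RNA-seq libraries. Members were every protein-coding gene of the deposited table whose symbol is Hoxa, Hoxb, Hoxc or Hoxd followed by digits, 39 symbols of 54532 genes, of which 22046 are protein coding. One symbol, Hoxd4, stood on a pair of rows, and its second row held 0 reads in all libraries and was left out. The members were chosen by gene name and biotype and no measured value set who belongs, but the set was proposed with results of these data known, so the counts below describe the members and test nothing about them as a set. All libraries came from skin biopsies of mice labelled wild type. There were 3 groups of 3 libraries: healthy control mice, mice given bleomycin (BLM), and mice given BLM together with nitrate applied to the skin. Bleomycin is a DNA-breaking drug that is used to bring about skin fibrosis, here as a mouse model of systemic sclerosis. The sources used here give no strain, sex, age, dose, duration, body site or number of animals per library. The tests therefore measure the spread between libraries, which may be technical.

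Hox genes encode homeodomain transcription factors that lie in 4 clusters, A to D, and are numbered by paralog group from the 3′ end of a cluster to its 5′ end. Low-numbered genes act towards the head and high-numbered genes towards the tail and the far ends of the limbs, and this order follows their order on the chromosome. Fibroblasts of adult skin keep a Hox pattern that records the place on the body from which they came. Hoxc13 is an exception with a known role in the hair follicle, where it drives hair keratin genes. Hox proteins bind DNA together with cofactors of the Pbx, Meis and Pknox families.

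Values were FPKM (fragments scaled to gene length and library size), which can be compared between genes because they are per length. The libraries held 15804050 to 18352592 reads in the table. Epidermal markers were high throughout: the mean log2(FPKM + 1) of 13 basal and suprabasal keratinocyte genes was 6.62 to 7.33 in the controls, 7.71 to 8.07 with bleomycin and 7.37 to 7.90 with added nitrate. Markers of other cell types differed between libraries and groups. The mean of 32 hair follicle genes was 0.63, 3.23 and 5.16 in the controls, 1.5, 4.94 and 6.12 with bleomycin, and 7.03, 5.01 and 7.48 with added nitrate, and 14 of the 32 genes were at 0 FPKM in control library 1. Skeletal muscle genes (15, of which 14 could be tested) had means of 8.59 to 9.13 in the controls, 6.67 to 8.67 with bleomycin and 6.25 to 8.27 with added nitrate. Fibroblast genes (18, of which 17 could be tested) had means of 5.34 to 5.78 in the controls, all above 4.67 to 5.09 with bleomycin and 4.74 to 5.17 with added nitrate. The 11 endothelial genes had means of 4.14 to 4.32 in the controls, 3.32 to 3.51 with bleomycin (4 called lower) and 2.87 to 3.71 with added nitrate. The 11 fat cell genes had means of 5.78 to 6.46, then 4.97 to 5.42 (1 called lower), then 4.0 to 5.24. Leukocyte genes (15, of which 11 could be tested) had means of 1.76 to 2.06, then 3.26 to 3.59 (6 called higher), then 1.79 to 2.59. Of the tested fibroblast genes 4 were called lower with bleomycin, and of the epidermal genes 3 higher and 1 lower. Hair follicle and muscle genes gave 0 calls there. Of all tested genes 3.69% were called lower and 4.74% higher. With nitrate against control, 7 endothelial, 6 fat cell, 4 fibroblast and 2 muscle genes were called lower (4.90% of all tested genes). Called higher were 2 hair follicle, 1 epidermal and 1 leukocyte gene (3.63%). The 6 melanocyte genes had means of 0.95 to 2.05, then 2.43 to 3.47, then 2.42 to 4.44 (2 called higher against control). Dermal papilla genes (14, of which 11 could be tested) had means of 2.27 to 2.39, then 2.28 to 2.48 (2 called higher), then 2.31 to 2.64. In whole skin, fewer cells of a type and less RNA per cell cannot be told apart.

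The 9 libraries shared a Hox pattern in which the middle of each cluster was active. All 11 genes of paralog groups 5 to 8 and all 7 of groups 9 and 10 reached 1 FPKM in at least 3 libraries, the level set for testing. Of the 12 genes of groups 1 to 4, 4 did so. Of the 9 genes of groups 11 to 13, Hoxc13 alone did so, and the other 8 stayed below 1 FPKM in every library. Hoxa11 and Hoxb13, which pattern the limb and the hindgut end of the body, had 0 reads in all 9 libraries, which allows up to 3 reads in each. In total 23 of the 39 genes were tested, 7 in cluster A, 6 in B, 7 in C and 3 in D. No tested gene reached 1 FPKM in a single group alone, and the highest value among the 16 untested genes was 1.62 FPKM, for Hoxb3 in a library with nitrate.

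**Figure D1:**
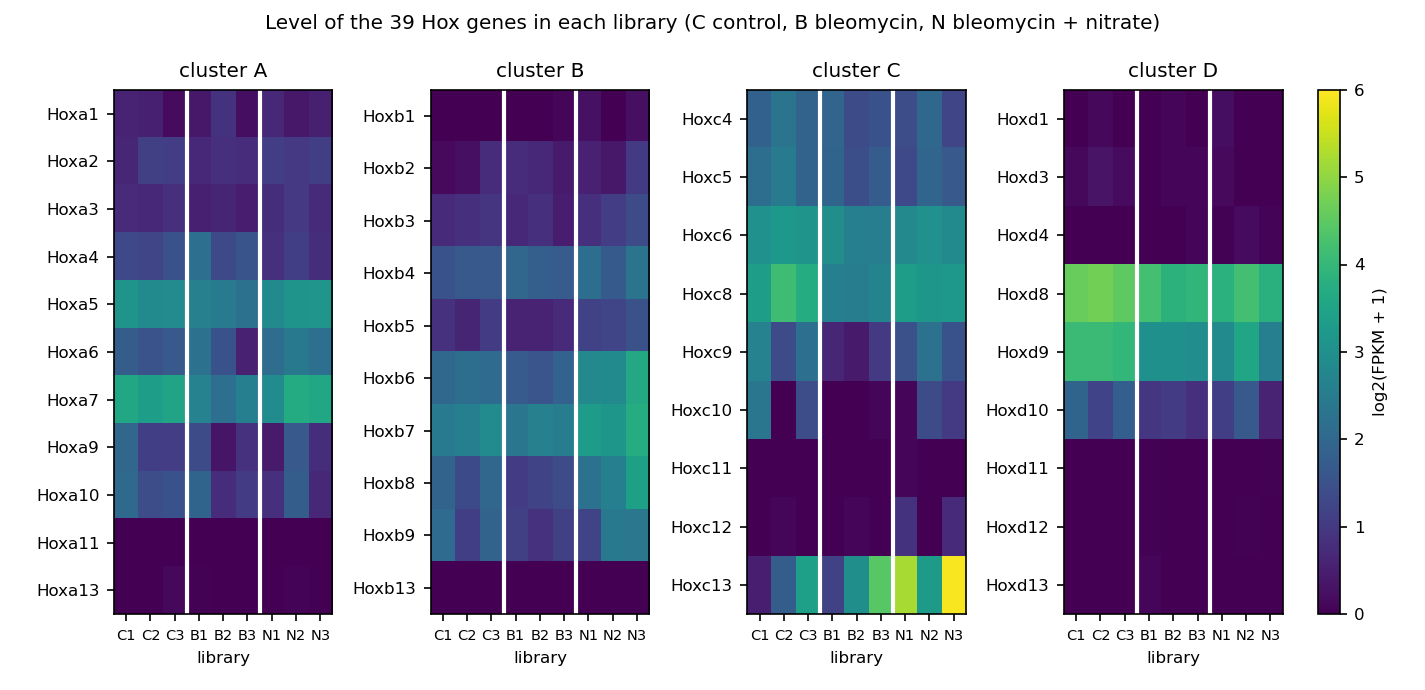
Level of each of the 39 Hox genes as log2(FPKM + 1) (colour) in the 3 control (C), 3 bleomycin (B) and 3 bleomycin plus nitrate (N) libraries, one panel per cluster with paralog numbers increasing downwards. Paralog groups 5 to 10 carry most of the signal, the bottom rows are dark apart from Hoxc13, and Hoxd8 is the brightest of the remaining genes in the controls.

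Ranked by control level, the leading genes were Hoxd8 at 23.5 ± 1.94 FPKM, Hoxd9 at 15.7 ± 0.706, Hoxc8 at 12.6 ± 3.84 and Hoxa7 at 10.1 ± 0.911 (mean ± SD, n = 3). Hoxc8 overlapped both of its neighbours in that order, with single libraries from 9.10 to 16.7 FPKM, whereas the Hoxd8 and Hoxd9 libraries did not overlap. Hoxc6 (7.68 ± 0.531), Hoxa5 (6.75 ± 0.770) and Hoxb7 (5.36 ± 0.925) followed, and neighbours among these overlapped as well. With added nitrate, Hoxc13 aside, the order differed, Hoxd8 at 14.6 ± 2.49 FPKM being followed by Hoxa7 (9.89 ± 3.02), Hoxb7 (9.61 ± 2.18), Hoxc8 (8.43 ± 0.572) and Hoxb6 (7.86 ± 2.95), and these last 4 overlapped each other.

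Summed over the 38 genes without Hoxc13, Hox FPKM was 121.3, 116.8 and 115.7 in the controls, 80.6, 63.4 and 66.3 with bleomycin, and 88.7, 117.8 and 112.8 with added nitrate. The bleomycin libraries lay below all others, and 1 nitrate library lay within the control range. The clusters did not share this pattern. Cluster D summed to 41.5 ± 2.10 FPKM in the controls, 23.1 ± 2.21 with bleomycin and 23.4 ± 6.33 with added nitrate, while cluster B stood at 17.4 ± 2.64, 13.7 ± 0.334 and 33.5 ± 10.7. The share of cluster B in the sum was 14.1, 12.8 and 17.4% in the controls, 16.7, 21.4 and 21.2% with bleomycin and 29.5, 24.3 and 40.6% with added nitrate. That of cluster D was 34.8, 37.0 and 33.9%, then 31.8, 34.1 and 33.4%, then 23.6, 26 and 16.6%. The nitrate libraries thus held the highest B shares and the lowest D shares without overlap with the other groups, which is a description, since members were not tested as a set.

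**Figure D2:**
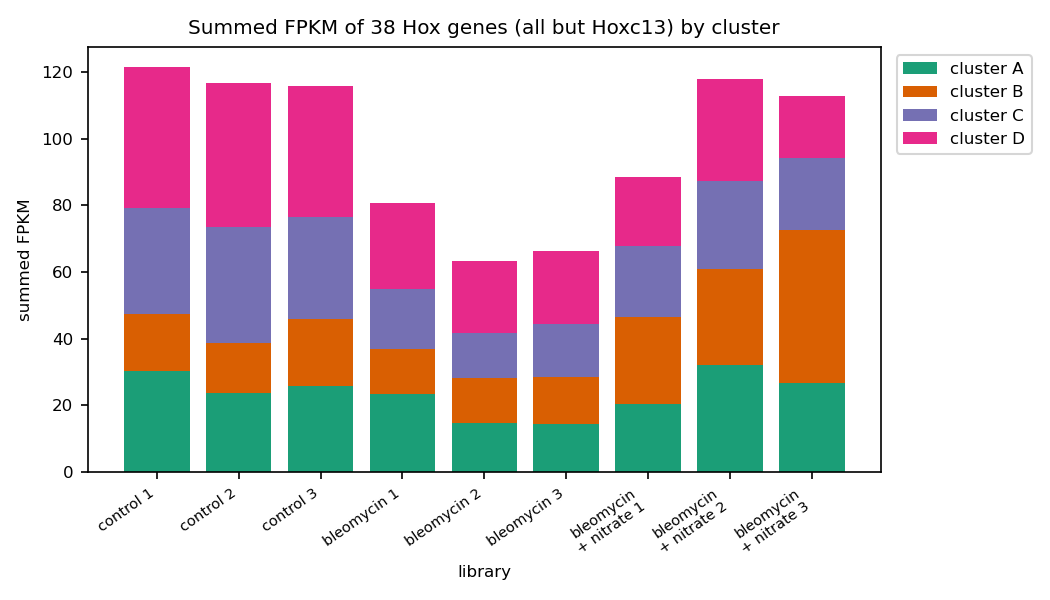
Summed FPKM of the 38 Hox genes other than Hoxc13 in each library, stacked by cluster. The 3 bleomycin bars reach 63.4 to 80.6 FPKM against 115.7 to 121.3 in the controls, and cluster B takes the largest part in the third nitrate library, at 45.8 FPKM.

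Bleomycin against control skin asks what the drug changed. In this comparison 5 of the 23 tested Hox genes fell and 0 rose, by limma on log2(FPKM + 1) with Benjamini-Hochberg adjustment over all 14645 tested genes and a threshold of 0.05. Of all tested genes 3.69% fell and 4.74% rose (8.43% called in either direction). The 5 were Hoxa7, Hoxc8, Hoxc9, Hoxd8 and Hoxd9, of which Hoxc8 and Hoxc9, and Hoxd8 and Hoxd9, are neighbours on a chromosome. The median difference over the 23 Hox genes was -0.46, against 0.01 over all tested genes, and 20 of the 23 estimates were below 0. At an unadjusted p under 0.05 there were 8 Hox genes (26.9% of all tested genes). Without overlap between the groups, 9 Hox genes were lower (17.3% of all tested genes were) and 1, Hoxb4, was higher (18.4%).

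Hoxd8 and Hoxd9 belong to the part of cluster D that is active in trunk and early limb. The whole of cluster D spans chr2:74668310-74765142 (mm10). Hoxd8 (ENSMUSG00000027102, chr2:74704615-74707933) was at 23.2, 25.6 and 21.7 FPKM in the controls, 17.5, 13.4 and 14.5 with bleomycin and 13.2, 17.4 and 13.1 with added nitrate. Hoxd9 (ENSMUSG00000043342, chr2:74697727-74700208) was at 16.1, 16.0 and 14.8 FPKM in the controls, 7.09, 7.0 and 6.72 with bleomycin and 6.22, 10.8 and 5.02 with added nitrate. For both genes every treated library lay below every control, and the treated groups overlapped each other. Hoxd8 fell by 0.61 ± 0.15 (SE, log2 scale) with bleomycin (limma adjusted p = 0.0396), a control mean 1.55 times the bleomycin mean. Hoxd9 fell by 1.07 ± 0.22 (adjusted p = 0.0229), a ratio of 2.26.

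The promoters of these neighbours are shown because they moved together. Each run holds 250 bases before and 50 after a transcription start in RefSeq on GRCm38.p6, 5′ to 3′, and capitals would mark 4 short motifs, none of which occurs in either window.
Hoxd8, chr2:74704365-74704664, plus strand: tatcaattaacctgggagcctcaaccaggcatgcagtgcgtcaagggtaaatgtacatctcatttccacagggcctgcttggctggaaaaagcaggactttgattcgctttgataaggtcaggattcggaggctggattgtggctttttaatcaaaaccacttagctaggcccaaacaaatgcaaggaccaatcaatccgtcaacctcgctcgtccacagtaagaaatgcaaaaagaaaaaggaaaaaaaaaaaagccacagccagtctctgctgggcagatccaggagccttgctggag
Hoxd9, chr2:74697513-74697812, plus strand: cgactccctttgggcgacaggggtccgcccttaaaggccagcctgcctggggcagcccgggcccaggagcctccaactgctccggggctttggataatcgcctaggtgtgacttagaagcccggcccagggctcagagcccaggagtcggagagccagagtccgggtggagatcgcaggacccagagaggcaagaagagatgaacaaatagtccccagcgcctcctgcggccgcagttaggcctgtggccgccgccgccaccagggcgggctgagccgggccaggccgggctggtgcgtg
The windows differed in composition, with 6 CpG dinucleotides and 46.7% G or C in the Hoxd8 window and 20 and 68.3% in that of Hoxd9. The motifs, read on both strands, were TGATTNAT (a Hox and Pbx site), TAATTA (a homeodomain core), TTTATG (a core of posterior Hox proteins) and TATAAA (the TATA box). In 27025 genes with such windows these occurred in 3.74, 6.12, 13.6 and 15.7%, and among the 22 Hox genes with an entry they occurred in 2, 1, 5 and 4. The median window of the Hox genes held 14.5 CpG against 7 over all 32851 windows.

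Hoxc8 and Hoxc9 lie side by side in cluster C (chr15:102921103-103036852). Hoxc8 (ENSMUSG00000001657, chr15:102990607-102994111), a gene of thoracic patterning, was at 9.10, 16.7 and 12.1 FPKM in the controls, 5.03, 4.75 and 5.55 with bleomycin and 9.08, 8.02 and 8.18 with added nitrate. The nitrate libraries stood between the other groups without overlap. Hoxc8 fell by 1.12 ± 0.19 with bleomycin (limma adjusted p = 0.0121), a ratio of means of 2.48. Hoxc9 (ENSMUSG00000036139, chr15:102976439-102985099), which in the embryo sets thoracic motor neuron identity, was at 5.28, 1.57 and 3.60 FPKM in the controls, 0.555, 0.356 and 1.03 with bleomycin and 1.79, 3.71 and 1.86 with added nitrate. It fell by 1.37 ± 0.35 (adjusted p = 0.0467). All bleomycin libraries were below all others, and the controls spread more than 3 FPKM apart.

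Hoxa7 (ENSMUSG00000038236, chr6:52214491-52221854), another trunk gene, was at 11, 9.16 and 10.3 FPKM in the controls, 5.29, 3.55 and 4.99 with bleomycin and 6.42, 12.0 and 11.2 with added nitrate. It fell by 1.0 ± 0.22 with bleomycin (limma adjusted p = 0.0314), a ratio of 2.20, and no bleomycin library overlapped either other group. Of its exon bases 20.4% are shared with the antisense RNA Hoxaas3, and without known strand the reads of overlapping genes cannot be told apart. Hoxa5 of the same cluster, a gene of lung and cervical to thoracic skeleton development, was at 7.63, 6.21 and 6.40 FPKM, then 5.10, 4.64 and 3.81, then 6.30, 7.65 and 7.73. The bleomycin libraries were again lowest, with a difference from control of -0.49 ± 0.13 that missed the threshold (adjusted p = 0.0580).

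The call for Hoxc8 held when any 1 of the 9 libraries was left out (adjusted p 0.0132 to 0.0413). Those for Hoxa7 and Hoxd9 were lost without any 1 of control 1, 2 or 3 or bleomycin 1, 2 or 3 (highest adjusted p 0.0893 and 0.0865), that for Hoxd8 without any of these or nitrate 1 (highest 0.146), and that for Hoxc9 without control 1 or 3, bleomycin 1, 2 or 3, or nitrate 1 or 3 (highest 0.126). Fibroblast, endothelial and fat cell marker means were below all controls in every bleomycin library. Epidermal, leukocyte and melanocyte means were above all controls, and muscle and dermal papilla means overlapped. Of these, fibroblast and muscle means were tried as covariates, after seeing the data, and the part of the others in these results was not tested. With the mean of the fibroblast genes as a covariate, 0 Hox genes and 1 of all genes were called, while the differences were -0.91 for Hoxc8, -0.96 for Hoxa7, -1.52 for Hoxc9, -0.67 for Hoxd9 and -0.49 for Hoxd8, and the Hox median was -0.54. With the mean of the muscle genes, Hoxc8 alone of the Hox genes was called (difference -1.08, limma adjusted p = 0.0452). That fit called 610 of all tested genes, against 1234 without a covariate.

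**Figure D3:**
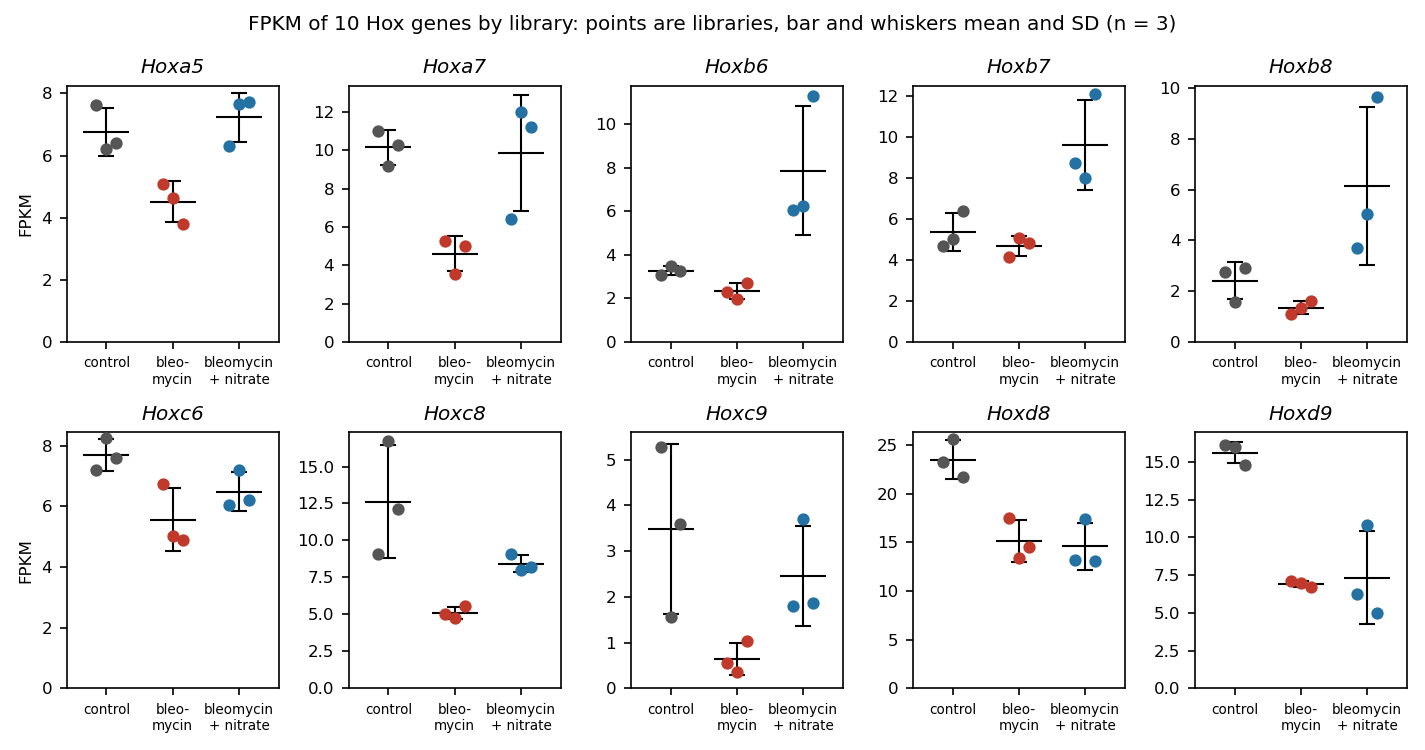
FPKM of 10 Hox genes in each library (points) with the group mean and SD (n = 3) for control, bleomycin and bleomycin plus nitrate skin, each axis starting at 0. Hoxd8 and Hoxd9 are low in both treated groups, Hoxa5 and Hoxa7 are low with bleomycin alone, and Hoxb6, Hoxb7 and Hoxb8 are highest with nitrate.

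The remaining named members did not pass the test in this comparison. Hoxc6, studied in mammary gland and thoracic patterning, was at 7.20, 8.25 and 7.60 FPKM in the controls, 6.75, 5.03 and 4.90 with bleomycin and 6.06, 7.21 and 6.20 with added nitrate, a bleomycin difference of -0.41 ± 0.13 (limma adjusted p = 0.0929) without overlap. Hoxc5 was at 3.47, 4.43 and 2.77, then 2.84, 1.72 and 2.37, then 1.52, 2.86 and 2.21 FPKM, and it shares 166 exon bases with Hoxc10. Its groups overlapped (adjusted p = 0.205).

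Several posterior members varied between libraries of a group. Hoxd10, a hindlimb gene, was at 2.81, 1.31 and 2.47 FPKM in the controls, 0.946, 1.08 and 0.781 with bleomycin and 1.17, 2.19 and 0.521 with added nitrate (bleomycin difference -0.69 ± 0.29, limma adjusted p = 0.165). Hoxa10, known from uterus and lumbar patterning, was at 3.14, 1.66 and 1.85, then 2.85, 0.688 and 1.09, then 0.750, 2.39 and 0.611 FPKM, and all 3 groups overlapped. Hoxc10, singled out after its values were seen, had 119, 0 and 55 reads in the controls, 0, 0 and 2 with bleomycin and 2, 57 and 37 with added nitrate, so that libraries of the same group ranged from none to over 100. Across the 7 genes of groups 9 and 10 the summed FPKM was 37.6, 22.9 and 28.3 in the controls, 14.2, 10.2 and 11.7 with bleomycin, and 11.7, 27.2 and 13.9 with added nitrate. Nitrate library 2, the one near the controls, also had the highest muscle (8.27), fibroblast (5.17) and endothelial (3.71) marker means of its group. Its hair follicle mean (5.01) was the lowest of the group. Its fat cell mean (4.0) was the lowest and its epidermal mean (7.90) the highest of the group, both the farthest from the controls. The part of any of these in the result was not tested.

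The anterior members differed little in sum. Groups 1 to 4 summed to 10.1 ± 1.33 FPKM in the controls, 9.86 ± 1.90 with bleomycin and 10.6 ± 0.543 with added nitrate. Hoxb4, known for its action in blood stem cells, was at 1.84, 2.20 and 2.17 FPKM, then 2.94, 2.5 and 2.28, then 3.53, 2.25 and 3.93. Its bleomycin libraries lay just above the controls (difference 0.22 ± 0.17, limma adjusted p = 0.446). Hoxd3, an upper neck patterning gene, stayed between 0.0125 and 0.241 FPKM and was not tested.

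Nitrate against bleomycin alone asks what nitrate added to drug-treated skin. At an adjusted p under 0.05 limma called 0 of the 23 Hox genes and 0 of all 14645 genes (0%). At an unadjusted p under 0.05 there were 10 Hox genes, against 2624 of all genes (17.9%). The median Hox difference was 0.58, against -0.00 over all genes, with 18 of 23 estimates above 0. Without overlap, 10 Hox genes were higher with nitrate (9.40% of all genes were) and 1, Hoxa4, was lower (11.8%). The smallest p-values were those of Hoxb6, Hoxb7 and Hoxb8, which are consecutive genes of cluster B (chr11:96194316-96368256).

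Hoxb6 (ENSMUSG00000000690, chr11:96292476-96301569), active in lateral plate mesoderm of the embryo, was at 3.06, 3.48 and 3.28 FPKM in the controls, 2.31, 1.97 and 2.69 with bleomycin and 6.08, 6.23 and 11.3 with added nitrate. Hoxb7 (ENSMUSG00000038721, chr11:96286623-96290162), also known from work on melanoma cells, was at 4.66, 5.01 and 6.41, then 4.13, 5.08 and 4.85, then 8.75, 7.99 and 12.1 FPKM. Hoxb8 (ENSMUSG00000056648, chr11:96281905-96285315), whose loss makes mice groom to excess, was at 2.76, 1.56 and 2.92, then 1.09, 1.34 and 1.61, then 3.70, 5.05 and 9.65 FPKM. In all 3 genes every nitrate library exceeded all 6 others, and nitrate library 3 was the highest. Against bleomycin alone the difference was 1.37 ± 0.21 for Hoxb6 (limma adjusted p = 0.0619), 0.88 ± 0.17 for Hoxb7 (adjusted p = 0.0938) and 1.52 ± 0.30 for Hoxb8 (adjusted p = 0.0942), ratios of mean FPKM of 3.38, 2.05 and 4.55.

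Of these 3 genes Hoxb8 has a promoter entry, shown as the window that held most motifs of those printed (RefSeq, GRCm38.p6, 5′ to 3′). Capitals mark TTTATG and TATAAA on either strand.
Hoxb8, chr11:96281655-96281954, plus strand: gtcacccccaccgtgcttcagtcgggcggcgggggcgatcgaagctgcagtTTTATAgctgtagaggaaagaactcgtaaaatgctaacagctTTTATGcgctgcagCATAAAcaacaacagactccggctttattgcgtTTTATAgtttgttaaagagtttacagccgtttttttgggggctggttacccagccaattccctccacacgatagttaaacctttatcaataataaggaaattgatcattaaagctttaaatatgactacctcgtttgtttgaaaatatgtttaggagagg
It held 13 CpG and 42.3% G or C. A match describes letters and does not show that a factor binds there.

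The other cluster B genes had estimates above 0 too, 6 of 6 tested (median 0.92). Hoxb5 and Hoxb9, singled out after their values were seen, had bleomycin means of 0.531 ± 0.0870 and 1.06 ± 0.221 FPKM and nitrate means of 1.48 ± 0.287 and 3.28 ± 1.69. In clusters A, C and D the medians were 0.32, 0.63 and 0.01. The 5 genes that fell with bleomycin differed here. Hoxa7 was 0.93 ± 0.22 higher with nitrate (limma adjusted p = 0.125), Hoxc8 0.63 ± 0.19 (adjusted p = 0.155) and Hoxc9 1.05 ± 0.35 (adjusted p = 0.180), whereas Hoxd8 (-0.05 ± 0.15, adjusted p = 0.886) and Hoxd9 (0.01 ± 0.22, adjusted p = 0.983) overlapped between the groups. These estimates share the bleomycin libraries with those against control, so an opposite sign is no separate evidence. Hoxa5 was 0.58 ± 0.13 higher (adjusted p = 0.121) and its nitrate libraries overlapped the controls. Hoxa4, outside the naming rule and picked after its values were seen, had 0.786, 1.16 and 0.725 FPKM with nitrate against 3.54, 1.52 and 1.96 without (difference -0.78 ± 0.22, adjusted p = 0.141). Leaving out nitrate 1 gave Hoxa7 an adjusted p of 0.0494.

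Nitrate with bleomycin against control skin compares skin that received both with healthy skin. Here 2 of 23 Hox genes rose, Hoxb6 and Hoxb7 (3.63% of all tested genes rose), and 2 fell, Hoxd8 and Hoxd9 (4.90% fell, 8.53% called in all). The groups did not overlap for 6 higher Hox genes (17.3% of all genes) and 4 lower ones (17.5%). At an unadjusted p under 0.05 there were 10 Hox genes (31.5% of all). The median over the 23 was -0.21 against 0.02 over all genes, and with the hair follicle or the muscle mean as a covariate it was 0.10 or 0.15, so no common direction is stated.

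Hoxb6 rose by 1.0 ± 0.21 (limma adjusted p = 0.0309, ratio 2.40) and Hoxb7 by 0.73 ± 0.17 (adjusted p = 0.0381, ratio 1.79), with the library values given above. Hoxb8 was 1.0 ± 0.30 higher and missed the threshold (adjusted p = 0.0684). Hoxd9 fell by 1.06 ± 0.22 (adjusted p = 0.0295, ratio 2.13) and Hoxd8 by 0.66 ± 0.15 (adjusted p = 0.0345, ratio 1.61). Hoxa7 (-0.07 ± 0.22, adjusted p = 0.841) and Hoxa5 (0.09 ± 0.13, adjusted p = 0.684) overlapped with control, while Hoxc8 stayed 0.50 ± 0.19 below it without overlap (adjusted p = 0.117). Hoxa6, a further trunk gene, was at 2.39, 1.91 and 2.17 FPKM in the controls, 3.79, 1.85 and 0.454 with bleomycin and 3.43, 4.37 and 3.55 with added nitrate (difference from control 0.60 ± 0.36, adjusted p = 0.288). Its bleomycin libraries ran from below all controls to above them and overlapped the nitrate libraries.

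Each of these 4 calls was lost in some fits with 1 library left out, although the differences kept their sign. Over all genes, such fits gave 45 to 2882 calls against 1249 with all libraries. That for Hoxb6 was lost without control 1, 2 or 3 (highest adjusted p 0.101). That for Hoxb7 was lost without control 1 or 2, any 1 bleomycin library, or nitrate 1 or 3 (highest 0.134). Those for Hoxd8 and Hoxd9 were lost without any 1 control, bleomycin 3, or nitrate 1 or 3 (highest 0.129 and 0.107). Without nitrate 2, Hoxb4 was also called (difference 0.62, adjusted p = 0.0237). With the hair follicle mean, which was higher in all nitrate libraries but the second than in every other library, as a covariate, none of the 4 was called: the differences were 0.85, 0.45, -0.45 and -0.82 for Hoxb6, Hoxb7, Hoxd8 and Hoxd9. That fit called 9 of all tested genes, against 1249 without the covariate, so the loss is not particular to these Hox genes.

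**Figure D4:**
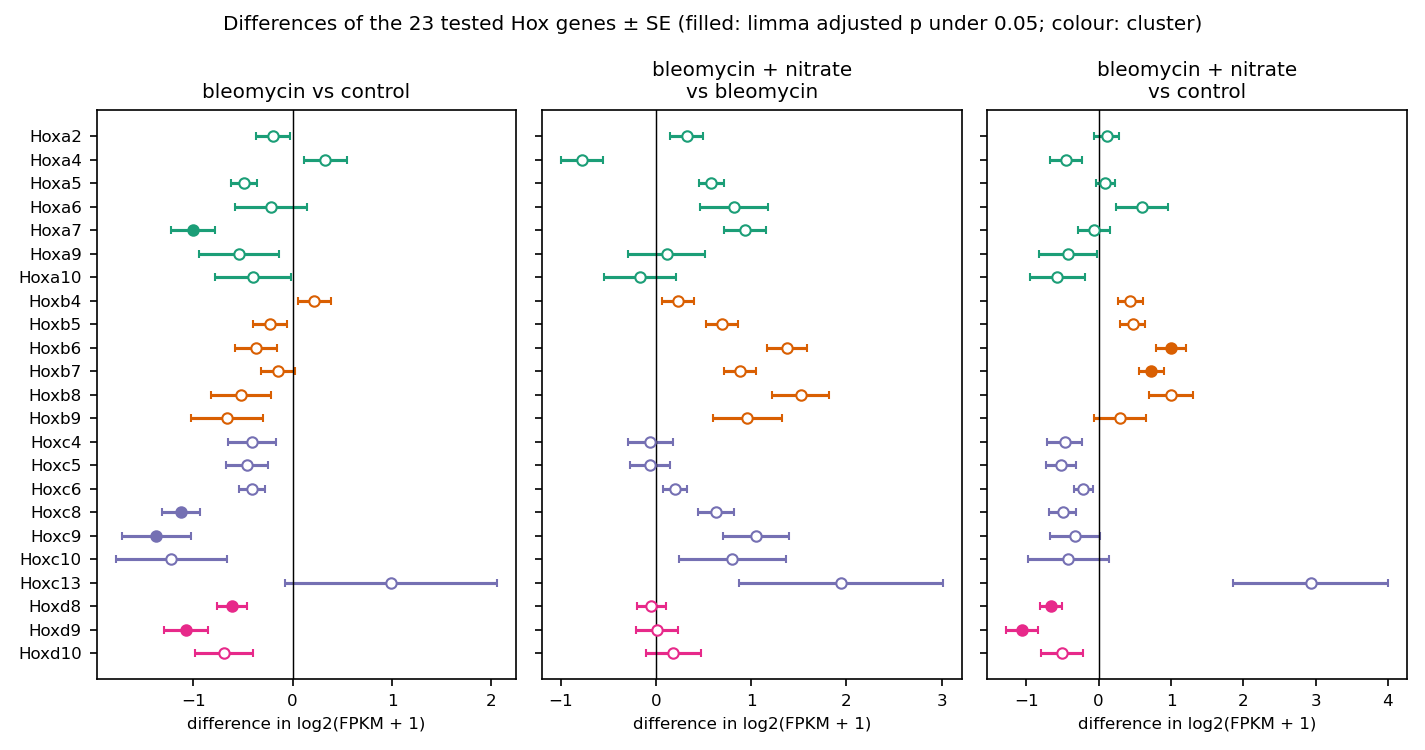
Difference in log2(FPKM + 1) ± SE for the 23 tested Hox genes in the 3 comparisons, coloured by cluster, with filled points for adjusted p under 0.05. Most points lie left of 0 for bleomycin against control, cluster B lies right of 0 in both nitrate panels, and Hoxd8 and Hoxd9 lie near 0 between the treated groups.

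Hoxc13 (ENSMUSG00000001655, chr15:102921103-102928814), the hair shaft regulator, spanned the widest range of all members. It was at 0.425, 2.39 and 9.40 FPKM in the controls, 1.25, 6.99 and 20.9 with bleomycin and 36.4, 8.72 and 60.1 with added nitrate. The groups overlapped in every comparison, and the nitrate difference from control of 2.93 ± 1.07 did not pass the test (limma adjusted p = 0.114). In each group the library with the lowest Hoxc13 was also lowest in the mean of the 32 hair follicle genes, and the one with the highest was also highest. With that mean as a covariate the difference was 0.47 (limma adjusted p = 0.636), and 9 of all tested genes were called against 1249 without it. The 32 genes include known Hoxc13 targets, so this fit cannot tell Hoxc13 apart from the hair follicle genes. Of 6 genes known as Hoxc13 targets or hair keratins, Krt84 rose with nitrate against control (2.76 ± 0.59, adjusted p = 0.0321). Of all tested genes 3.63% rose in that comparison. Krt84 was at 0, 0.631 and 1.37 FPKM in the controls and passed the filter mainly through the treated groups, where it is higher. This p-value therefore carries little weight. Every bleomycin library also lay above every control for Krt84 (difference 1.63 ± 0.59, limma adjusted p = 0.125). The other 5 did not pass, among them Foxn1, the hair and thymus factor (2.40 ± 0.79, adjusted p = 0.0878), and the hair keratin gene Krt32 (3.33 ± 1.30, adjusted p = 0.131).

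**Figure D5:**
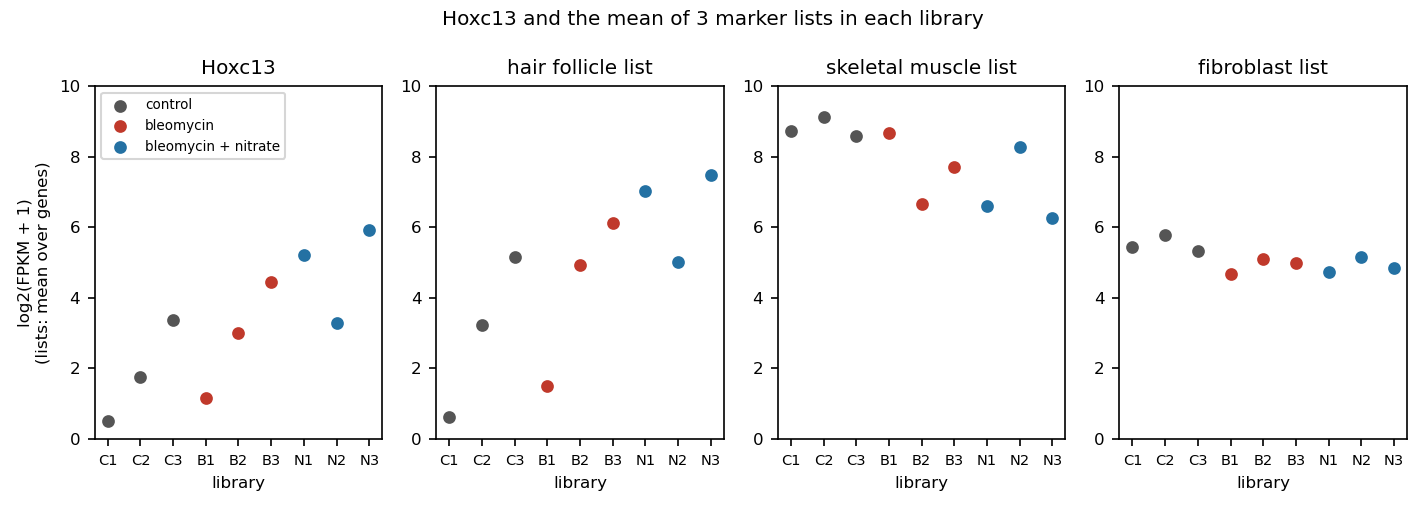
Level of Hoxc13 and the mean level of the hair follicle, skeletal muscle and fibroblast lists, as log2(FPKM + 1), in each control (C), bleomycin (B) and bleomycin plus nitrate (N) library. Hoxc13 and the hair follicle mean are low in control 1 and bleomycin 1 and high in nitrate 1 and 3, and the fibroblast mean is above 5.3 in the 3 controls and below 5.2 in the other libraries.

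Other RNAs are made inside the clusters. Besides the Hox genes, 43 noncoding genes and pseudogenes lay between the first and last member of a cluster in the table, of which 25 had a read and 10 were tested. Those include microRNA genes, whose mature forms were not measured by these libraries. Reads counted on them are of longer RNA over the locus, and which RNA that is was not tested. The mature strands are shown by shared seed (bases 2 to 8, in capitals, RefSeq, GRCm38.p6), because miR-196 and miR-10 lie at matching places of several clusters and are known to act on Hox mRNA.
miR-196a-5p (clusters B and C): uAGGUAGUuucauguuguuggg
miR-196b-5p (cluster A): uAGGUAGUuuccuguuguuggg
miR-10a-5p (cluster B): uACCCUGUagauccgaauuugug
miR-10b-5p (cluster D): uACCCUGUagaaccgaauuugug
The first pair share the seed AGGUAGU and the second pair ACCCUGU. The known target site of miR-196a in Hoxb8 was found in the GENCODE M21 transcript at chr11:96284888-96284909 (GRCm38), in the 3′ UTR within exon 2. Capitals mark bases that match the full complement of miR-196a-5p (A with U and G with C). A G opposite a U, as at the lower-case base, was counted as a mismatch.
Hoxb8 site: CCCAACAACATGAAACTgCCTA
It matched the complement at 21 of 22 bases, and no other of 21877 coding genes had a match with 1 mismatch or none. The best windows in Hoxa4 and Hoxd8 matched at 15 bases, which 2099 of the coding genes reached or exceeded.

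Mir196a-1, which lies between Hoxb13 and Hoxb9 in cluster B (chr11:96265164-96265265), had 7, 3 and 25 reads in the controls, 11, 4 and 5 with bleomycin and 11, 29 and 40 with added nitrate, and was not called (nitrate against bleomycin 1.57 ± 0.66, limma adjusted p = 0.261). Hoxb5os, an antisense RNA over Hoxb5 and Hoxb6 that shares 100 exon bases with Hoxb5, had 3, 9 and 13 reads, then 14, 18 and 29, then 40, 31 and 77. It rose with nitrate against control (1.45 ± 0.29, adjusted p = 0.0282). Hoxb5os was at 0.282, 0.769 and 1.07 FPKM in the controls and passed the filter mainly through the treated groups, where it is higher, so this p-value carries little weight. That call was lost without control 1 or 2 or nitrate 1 or 3 (highest adjusted p 0.0977). It was also lost without a filter, with only the groups compared, and with the hair follicle, muscle or fibroblast covariate. Gm27477, a short noncoding RNA of cluster A, had 2, 2 and 2 reads in the controls. It had 10, 7 and 5 with bleomycin and 4, 5 and 4 with added nitrate, 41 reads in all. It was below 1 FPKM in every control and passed the filter through the treated groups, where it is higher. Its p-values therefore carry no weight, and neither they nor a fold is given.

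Mir10b in cluster D (chr2:74726070-74726137), named after its values were seen, had 4, 7 and 5 reads in the 3 controls and 0 in all 6 treated libraries. It reached 1 FPKM in the controls alone and so passed the filter through the group where it is high, on 16 reads in all. Its p-values therefore carry no weight, and neither they nor a fold is given. Its paralog Mir10a had 4 reads in the controls, 0 with bleomycin and 3 with added nitrate and was not tested.

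Partners and regulators of Hox genes were read from lists. Of 9 Pbx, Meis and Pknox cofactors 6 were tested and 0 were called in any comparison. Of all tested genes 8.43% were called with bleomycin, 0% with nitrate against bleomycin and 8.53% with nitrate against control. At those shares, 0 calls in so short a list do not show that the list is unchanged. Meis3, a cofactor gene, was at 1.73, 2.92 and 2.07 FPKM in the controls, 1.78, 1.62 and 1.93 with bleomycin and 1.61, 1.74 and 1.56 with added nitrate, with overlap of all groups. The 11 tested trithorax and H3K27 demethylase genes, which keep Hox genes active, gave 0 calls in any comparison, with the same limit. Of 19 tested Polycomb genes, which keep Hox genes silent, 0 were called with bleomycin (8.43% of all tested genes were). With nitrate against control 2 rose (3.63% of all tested genes rose). These were Cbx8, a subunit that reads H3K27 methylation (0.91 ± 0.14, limma adjusted p = 0.0163), and Mtf2, an accessory subunit of the H3K27 methyltransferase (0.55 ± 0.10, adjusted p = 0.0199). In those libraries Cbx8 was at 2.64, 2.76 and 3.47 FPKM, above 1.03, 0.987 and 1.28 in the controls.

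Retinoic acid activates Hox genes in the embryo. Of 14 tested genes of its pathway 0 fell with bleomycin (3.69% of all tested genes did), and those that rose included both Crabp genes. Crabp2, which carries retinoic acid to its receptor, rose by 1.32 ± 0.15 (adjusted p = 0.00439). Crabp1, a related carrier, was at 31.9, 25.1 and 29.8 FPKM, then 82.9, 130.9 and 73.0, then 35.8, 23.8 and 32.0, and rose by 1.65 ± 0.24 (adjusted p = 0.00833). Its nitrate libraries overlapped the controls. Among the genes of the list that rose with nitrate against control were Crabp2 (1.11 ± 0.15, limma adjusted p = 0.0124) and the receptor gene Rarg (0.79 ± 0.13, adjusted p = 0.0167). In that comparison 0 genes of the list fell (4.90% of all tested genes did). Of the list of Cdx genes and Gdf11 (6 genes), 1 could be tested. This gene, Gdf11, a signal that sets trunk and tail Hox borders, was at 3.57, 5.56 and 3.71 FPKM in the controls, 1.95, 2.73 and 1.68 with bleomycin and 1.42, 1.40 and 1.23 with added nitrate. It fell in both treated groups, by 0.76 ± 0.18 (adjusted p = 0.0389) and 1.15 ± 0.18 (adjusted p = 0.0163).

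Other transcription factors of body position gave 1 call of 25 with bleomycin (8.43% of all tested genes were called) and 5 with nitrate against control (8.53% of all). Tbx2, a limb and trunk T-box factor, fell in both (0.67 ± 0.16 lower, limma adjusted p = 0.0381, and 0.85 ± 0.16 lower, adjusted p = 0.0242). Tbx15, which sets the border between back and belly skin, was at 39, 54 and 39.3 FPKM in the controls, 24, 17.3 and 19.3 with bleomycin and 14.1, 31.2 and 11.6 with added nitrate. It missed the threshold with bleomycin (-1.09 ± 0.33, adjusted p = 0.0776) and fell with nitrate (-1.28 ± 0.33, adjusted p = 0.0479). Shox2, a limb factor, fell too with nitrate (-0.82 ± 0.19, adjusted p = 0.0388), and Irx4 (2.03 ± 0.39, adjusted p = 0.0256) and Tbx1 (1.37 ± 0.35, adjusted p = 0.0478) rose. The list medians were -0.42 with bleomycin and -0.47 with nitrate, against 0.01 and 0.02 over all tested genes.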

How the data were processed

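The authors deposited 1 table of FPKM values for 54532 genes and 9 libraries. Per the labels' protocols, total RNA was made into mRNA-seq libraries with a SMARTer kit. The build was mm10, per the submitters' processing notes. Aligner, counter, strand setting and their versions are not given in the sources used here. FPKM times gene length fell on whole multiples of one step per library (100.0% of genes within 0.01), so reads were recovered from it. Levels were compared as log2(FPKM + 1) in limma 3.58.1 (R 4.3.3): genes reaching 1 FPKM in 3 or more of the 9 libraries, 3 group means, eBayes with trend and robust settings, two-sided tests, Benjamini-Hochberg over 14645 genes, called under 0.05. The script was tested on simulated data. Differences are on that log2 scale, which understates changes of low genes. With 3 libraries a group precision is limited.

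Library values are printed for the 4 Hox genes with the highest mean in each cluster, those called, the 3 with the smallest p per comparison, and Hoxc13. Members and lists were chosen with earlier results of these data known. Of 39 genes, 38 had the same coordinates in GENCODE M21, and 22 had a RefSeq promoter entry. Alternatives varied pseudocount, filter, scaling, groups fitted, replicate block, library weights, covariates, libraries left out and a voom fit of recovered reads.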

Additional observations from a re-analysis of the deposited data

How the results depend on the processing

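The number of Hox genes called for bleomycin against control (5) was 1 without a filter, 2 with the replicate block, 2 with the hair follicle covariate, 1 without control 1 and bleomycin 1, 1 with the skeletal muscle covariate and 0 with the fibroblast covariate. That for nitrate against control (4) was 0 without a filter, with only the groups compared, with either the hair follicle, muscle or fibroblast covariate, and without control 1 and bleomycin 1. Leaving out 1 library gave 1 to 5, 0 to 1 (nitrate against bleomycin) and 0 to 5 Hox genes. The muscle and fibroblast covariates were chosen after seeing the data.

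Over all genes, the 1234 calls for bleomycin against control became 676 without a filter, 747 at a mean FPKM of at least 5, 1947 with library weights, 137 without control 1 and bleomycin 1, 610 with the muscle covariate and 1 with the fibroblast covariate (334 to 1539 leaving out 1 library). The 1249 for nitrate against control became 294 without a filter, 306 with only the groups compared, 2085 with library weights, 9, 28 and 0 with the hair follicle, muscle and fibroblast covariates, and 23 without control 1 and bleomycin 1 (45 to 2882). The 0 for nitrate against bleomycin became 2 with the fibroblast covariate (0 to 37). Hoxc8 was called lower with bleomycin under 22 of 23 alternatives, the exception being the fibroblast covariate. Among the named genes, 1098 values under alternatives kept their side of the threshold, 111 lost the call and 3 gained it. The 1098 include results not called at the start, which had no call to lose, and those of Mir10b. The bleomycin calls were kept under 11 of 23 alternatives for Hoxa7, 7 of 22 for Hoxc9, 10 of 23 for Hoxd8 and 13 of 23 for Hoxd9. Those for nitrate against control were kept under 13 of 22 for Hoxb6, 9 of 23 for Hoxb7, 10 of 23 for Hoxd8 and 11 of 23 for Hoxd9. The cause of the lost calls was not tested. The cluster C share with bleomycin was 24.3% in recovered reads against 22.5% in FPKM.

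Libraries with the same number did not all deviate together (correlations from -0.391 to 0.517), so they were not taken as pairs. The replicate block gave 2, 0 and 3 Hox genes and 1039, 10 and 1067 of all genes in the 3 comparisons. Low members rest on few reads: Hoxc10 had at most 119 in a library. It had 0 in control 2, the library with the most reads in the table (18352592), and why was not tested.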
